A study of Homo sapiens with 9 samples.

Results

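The genes described here are 38 genes of glycolysis and of the hypoxia response, out of 36650 genes in the deposited expression table. They were taken by symbol, and all 38 were found. Of these, 24 encode glycolytic enzymes, sugar and lactate transporters or the kinases that steer glycolysis and pyruvate use. Another 11 are targets of hypoxia-inducible factor (HIF) outside glycolysis, and 3 encode HIF subunits.

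The 9 mRNA libraries came from 16D, a castration-resistant prostate cancer line. All cells had received Cas9 and a guide against OGDHL by lentivirus, had spent 6 weeks under the androgen receptor inhibitor enzalutamide, and were kept at 10 µM of it. They then received, again by lentivirus, one of 3 inserts with 3 libraries each: eGFP as the control, full-length OGDHL that the guide cannot cut, or the same resistant gene without its mitochondrial targeting sequence (dMTS). OGDHL is a relative of the E1 subunit of the 2-oxoglutarate dehydrogenase complex of the citric acid cycle. No unedited and no untreated cells were analysed here, so every group shares the knockout and the drug. No label says whether the cells were a clone or a pool, or whether replicates were separate cultures, so a p-value speaks only for the spread among these libraries.

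Glycolysis breaks glucose down to pyruvate in the cytosol, and lactate dehydrogenase turns pyruvate into lactate when it does not enter mitochondria. HIF is a transcription factor made of an oxygen-labile alpha subunit and a stable beta subunit. The enzymes that mark the alpha subunit for degradation need oxygen and 2-oxoglutarate, the substrate of the OGDH complex, and many glycolytic genes are HIF targets. Normal prostate epithelium runs an unusual, citrate-secreting metabolism, and prostate cancers differ widely in how much glycolysis they use.

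The labels were checked against the transgene and against cell markers. OGDHL stood at 1.26, 1.18 and 1.12 TPM (transcripts per 1000000) with eGFP, at 220, 165 and 270 TPM with the full-length form and at 76.1, 175 and 124 TPM with dMTS. The luminal prostate markers KLK3 (1041 to 1235 TPM) and KRT18 (132 to 185 TPM) were high in all 9 libraries, while the leukocyte gene PTPRC, the endothelial genes PECAM1 and CDH5 and the basal gene TP63 were at most 0.00319 TPM. Low values were seen for the basal gene KRT14 (0.321 to 0.563 TPM), the leukocyte gene CD68 (0.262 to 0.601 TPM) and the endothelial gene VWF (0.0166 to 0.0355 TPM). The fibroblast gene COL1A1 was at 2.22 to 3.13 TPM and COL1A2 at most 0.00871 TPM. The estimated depth was 86.3 to 121 M reads, where M is 1000000. The libraries differed in scale: the median gene of dMTS replicate 2 stood 0.28 above its mean on the log2 scale and that of eGFP replicate 3 stood at -0.13. Each comparison is therefore given both as deposited and after each library was rescaled to bring that median to 0. Mitochondrially encoded genes took 54.9% of TPM in dMTS replicate 2 and 62.1% to 66.0% in the other 8 libraries. Of the estimated reads, which are not divided by span, they took 14.8% in dMTS replicate 2 and 19.1% to 22.5% in the others. The calls with these genes taken out of the TPM are given with the dMTS comparison.

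HIF binds DNA at the core ACGTG, most often as part of a longer element, and the core GCGTG is its variant. The set of RefSeq promoters used (GRCh38.p14) held 33 of the 38 genes, in 62 windows of 250 bases before a transcription start. It lacked VEGFA, BNIP3L, SLC16A1, PFKFB2 and NDRG1, so the shares given here leave these genes out. A gene with several starts has several windows. The core ACGTG, searched on both strands, was in 24 windows (38.7%), against 18.5% of all 35116 promoter windows. Either core was in 37 windows (59.7%), against 43.2% of all. Among the 48 windows of glycolytic genes 35.4% held ACGTG, and among the 14 windows of the other genes 7 (50%) did. These windows belong to 22 glycolytic and 11 other genes, and windows of the same gene can overlap. The shares thus count starts and not genes, and their difference is not one between the 2 groups of genes. Most genes of either group held ACGTG in at least 1 window. The stretches below belong to 4 of the genes whose mRNA was higher with dMTS after rescaling. Of the 2 windows of HK2, the 2 of LDHA, the 4 of PFKP and the 3 of MXI1, the ones shown were picked because they hold ACGTG outside annotated exons. Capitals mark the cores on either strand, and CACGTG reads as ACGTG on both strands.
HK2, chr2:74834920-74835169, plus strand: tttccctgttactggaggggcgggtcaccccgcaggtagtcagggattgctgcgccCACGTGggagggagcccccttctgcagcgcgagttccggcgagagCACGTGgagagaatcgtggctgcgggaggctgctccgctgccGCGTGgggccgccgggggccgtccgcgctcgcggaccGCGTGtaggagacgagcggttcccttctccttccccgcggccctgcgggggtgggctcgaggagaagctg
LDHA, chr11:18394313-18394387, plus strand: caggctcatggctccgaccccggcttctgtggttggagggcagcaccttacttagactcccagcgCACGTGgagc
PFKP, chr10:3068939-3069188, plus strand: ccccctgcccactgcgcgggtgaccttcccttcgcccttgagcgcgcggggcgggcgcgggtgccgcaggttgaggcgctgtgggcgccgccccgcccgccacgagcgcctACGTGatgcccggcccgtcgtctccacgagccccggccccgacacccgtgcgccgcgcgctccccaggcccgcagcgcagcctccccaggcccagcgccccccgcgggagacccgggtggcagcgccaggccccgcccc
MXI1, chr10:110209981-110210230, plus strand: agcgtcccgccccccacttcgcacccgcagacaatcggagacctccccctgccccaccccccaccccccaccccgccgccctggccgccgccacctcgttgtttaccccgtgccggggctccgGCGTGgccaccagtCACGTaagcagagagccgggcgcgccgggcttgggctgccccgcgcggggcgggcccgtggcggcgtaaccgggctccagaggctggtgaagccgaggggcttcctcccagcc
The HK2 window shown held 2 copies of CACGTG and 2 of GCGTG. The stretch of the LDHA window outside annotated exons held 1 CACGTG, the PFKP window shown 1 ACGTG, and the MXI1 window shown 1 of each core. Of the other 3 windows of PFKP, 2 held neither core and 1 held only GCGTG, and of the other 2 of MXI1, 1 held neither and 1 only GCGTG. The LDHB window held neither core, although LDHB is among the genes called with dMTS after rescaling. The window of ERO1A, also called, held 1 of each core and is not shown. ACGTG was likewise in windows of genes that were not called with dMTS, such as ANKRD37, GAPDH and FAM162A. A match describes letters in a window and is not evidence of binding.

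Levels of the genes spanned a wide range. The deposited TPM divide by the whole genomic span, introns included, so levels of different genes are compared here as estimated reads per kilobase of transcript per 1000000 reads of nuclear genes. On this scale GAPDH, the NADH-producing dehydrogenase of the pathway, was highest at a mean of 1244 over the 9 libraries. It was followed by ENO1, an enolase, at 592, TPI1, triose phosphate isomerase, at 489, ALDOA, an aldolase, at 449, and LDHB at 426. PKM (pyruvate kinase) stood at 407, LDHA at 388, GPI (glucose phosphate isomerase) at 277 and PGAM1 (phosphoglycerate mutase) at 228. The first 9 places were thus taken by glycolytic enzymes. The enzymes at the entry of the pathway were far lower, HK1 at 20.5, HK2 at 17.8 and the glucose transporter SLC2A1 at 15.5. The highest gene outside glycolysis was FAM162A, a mitochondrial HIF target, at 122. Of the HIF subunits, HIF1A stood at 27.4, its partner ARNT at 18.9 and EPAS1, which encodes HIF-2 alpha, at 1.14. CA9, a carbonic anhydrase widely used as a hypoxia marker, was the lowest of all at 0.0370, from 1 to 20 estimated reads per library. SLC16A3, the lactate exporter MCT4, at 0.1004, and ADM, the vasodilator peptide adrenomedullin, at 0.135, were also close to the floor.

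**Figure D1:**
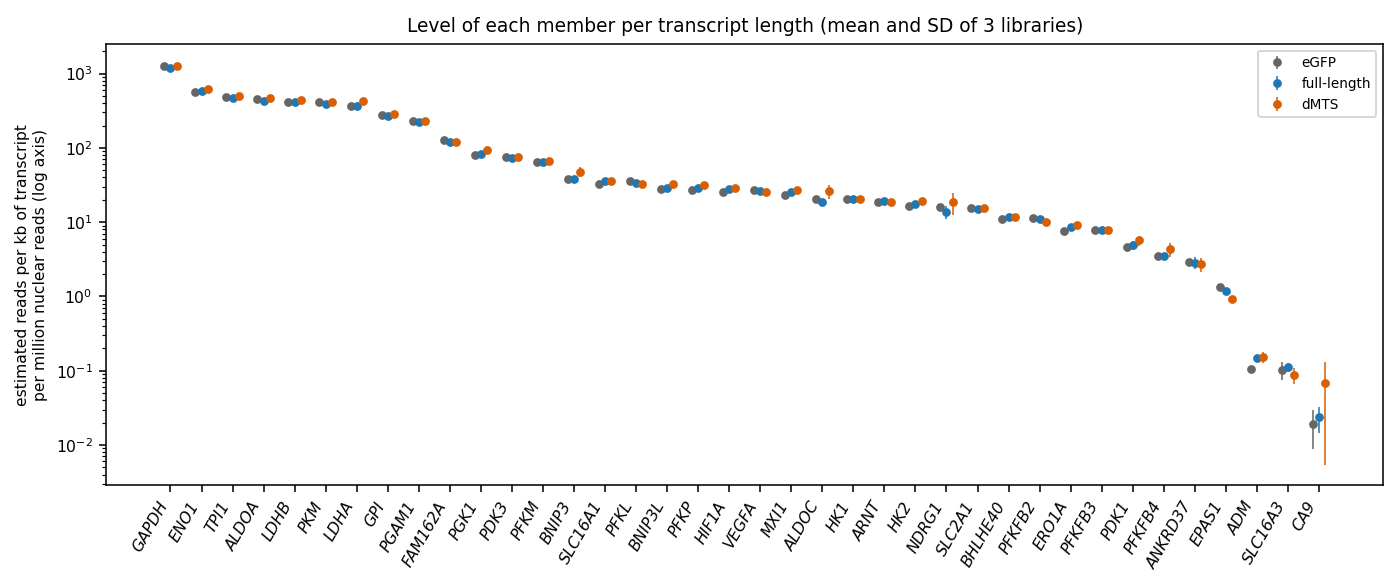
Level of each of the 38 genes as estimated reads per kilobase of transcript per 1000000 nuclear reads (log axis), mean and SD of 3 libraries for eGFP, full-length OGDHL and dMTS. The glycolytic enzymes lead, with GAPDH at a mean of 1244, and CA9 is lowest at 0.0370, with the 3 groups close together at nearly every gene.

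Full-length OGDHL was first compared with eGFP, to see whether returning the mitochondrial form moved these genes. None of the 32 genes tested passed the test (limma on log2(TPM + 1), Benjamini-Hochberg adjustment over all 13231 genes tested, call at an adjusted p under 0.05). Of all genes 0.00756% passed as deposited, 0.0302% after rescaling and 0.0167% by voom on estimated reads, where again none of 37 members passed. At an unadjusted p under 0.05 there were 0 members as deposited (1.97% of all genes), 4 after rescaling (9.18%) and 5 by voom (8.12%). The median log2 difference of the 32 genes was 0.01 as deposited and 0.00 after rescaling, against 0.00 for all genes on both scales. The members' differences ran from -0.13 to 0.14 after rescaling.

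The main enzymes gave narrow differences. LDHA, which makes lactate from pyruvate, stood at 163, 157 and 171 rescaled TPM with eGFP and at 163, 164 and 174 with full-length OGDHL, a log2 difference of 0.03 (SE 0.07). The groups overlapped. GAPDH differed by -0.06 (SE 0.06), PKM by -0.05 (SE 0.04), ALDOA by -0.09 (SE 0.06) and ENO1 by 0.03 (SE 0.05) on the rescaled log2 scale. The largest positive difference was that of SLC16A1, the lactate and pyruvate transporter MCT1, at 7.75, 7.14 and 6.92 rescaled TPM with eGFP and 8.08, 7.67 and 8.54 with full-length OGDHL (log2 difference 0.14, SE 0.06, adjusted p = 0.521). The smallest adjusted p, 0.435, belonged to ERO1A, an oxidase of the endoplasmic reticulum that forms disulfide bonds, at a difference of 0.11 (SE 0.03). After rescaling the 3 full-length libraries lay above all 3 eGFP libraries for 7 members (PFKP, PGK1, MXI1, BHLHE40, PFKM, HK2 and ERO1A) and below them for 2 (PFKL and PGAM1). Among all genes 7.95% lay above and 9.8% below in this way. As deposited they lay above for 0 and below for 2 (GAPDH and ALDOA), where 2.08% and 9.39% of all genes did.

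The dMTS form, which lacks the mitochondrial targeting sequence, was then compared with eGFP. As deposited none of the 32 genes passed the test, where 0.514% of all genes did, and 9 had an unadjusted p under 0.05 (10.9% of all genes). After rescaling 6 genes rose and none fell, against 3.33% of all genes higher and 6.06% lower. They were HK2, PFKP, LDHA and LDHB of glycolysis, and ERO1A and MXI1 of the HIF targets, each higher by 0.14 to 0.27 on the log2 scale. By voom with TMM scaling, 9 of 37 genes rose and EPAS1 fell, against 3.19% of all genes higher and 5.69% lower; the 9 were the same 6 with ENO1, PGK1 and BNIP3. Voom scaled by library size alone called 8 (7.5% of all genes), 7 of them higher, with EPAS1 lower. With TPM recomputed after dropping OGDHL and the mitochondrial genome, ERO1A, LDHB, MXI1 and PFKP rose (7.33% of all genes called). The median log2 difference of the 32 genes was 0.17 as deposited and 0.10 after rescaling, against 0.06 and 0.01 for all genes. After rescaling the 3 dMTS libraries lay above all 3 eGFP libraries for 14 members and below them for 2, where 15.2% and 17.2% of all genes did. As deposited they lay above for 1 (PFKP) and below for 0, where 5.24% and 6.58% of all genes did. In bulk RNA a change in fewer cells and a smaller change in every cell cannot be told apart.

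The hexokinases, which trap glucose in the cell, differed from each other in these values. HK2, the inducible form, lies on chromosome 2 (74834127 to 74893359, GRCh38). It stood at 4.15, 4.16 and 4.07 rescaled TPM with eGFP, at 4.49, 4.40 and 4.65 with full-length OGDHL and at 4.56, 5.28 and 5.11 with dMTS. No eGFP library reached the lowest library of the other groups. HK2 rose with dMTS by 0.22 (SE 0.05, adjusted p = 0.0300) after rescaling and by 0.27 (adjusted p = 0.0114) by voom. HK1, the constitutive form, stood at 1.47, 1.51 and 1.40 with eGFP and 1.39, 1.51 and 1.54 with dMTS, a difference of 0.01 (SE 0.04). The glucose transporter SLC2A1 differed by 0.03 (SE 0.04), and GPI, the next enzyme after the hexokinases, by 0.08 (SE 0.04, adjusted p = 0.215).

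Phosphofructokinase commits sugar to glycolysis, and its 3 subunit genes gave unlike values. PFKP, the platelet-type subunit on chromosome 10 (3066333 to 3137718), stood at 2.53, 2.61 and 2.67 rescaled TPM with eGFP, at 2.81, 2.74 and 2.78 with full-length OGDHL and at 2.96, 3.01 and 3.22 with dMTS. The 3 groups did not overlap. PFKP rose with dMTS by 0.17 (SE 0.03, adjusted p = 0.0246). The muscle-type PFKM was at 12.9 to 13.1 with eGFP and 13.3 to 14.2 with dMTS (0.07, adjusted p = 0.148). The liver-type PFKL was at 9.56, 10.1 and 10.1 with eGFP and at 8.98, 9.23 and 9.51 with dMTS, a difference of -0.09 (SE 0.03, adjusted p = 0.117). Each dMTS library of PFKL lay below each eGFP library, but the difference did not pass the test. PFKFB2, one of the bifunctional enzymes that set the level of the sugar phosphate that activates phosphofructokinase, gave -0.14 (SE 0.05, adjusted p = 0.122), also without overlap. Its relatives PFKFB3 and PFKFB4 fell under the TPM filter, and by voom differed by 0.02 (SE 0.07) and 0.31 (SE 0.13, adjusted p = 0.171).

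In the middle of the pathway the spread between dMTS libraries was wide for ALDOC and PGK1. ALDOC, the brain-type aldolase and the highest difference among the members after rescaling, stood at 26.3, 26.03 and 28.98 with eGFP, at 24.6, 23.96 and 27.6 with full-length OGDHL and at 28.9, 33.04 and 44.1 with dMTS. dMTS replicate 1 lay within the eGFP range and replicate 3 far above it, and the difference of 0.35 (SE 0.14, adjusted p = 0.144) did not pass. PGK1, phosphoglycerate kinase, showed the same order at 4.86, 5.35 and 6.16 in the dMTS libraries, against 4.55 to 4.60 with eGFP. It was not called after rescaling (0.20, adjusted p = 0.0873) and was called by voom (0.25, SE 0.07, adjusted p = 0.0479). ENO1 stood at 140, 145 and 148 with eGFP and at 157, 155 and 174 with dMTS, with adjusted p = 0.0653 after rescaling and 0.0482 by voom. ALDOA (0.06), TPI1 (0.06), GAPDH (0.04), PGAM1 (0.04) and PKM (0.05) gave these differences on the rescaled log2 scale with SEs of 0.03 to 0.06, and were not called by either fit. Many of these enzyme genes have processed pseudogenes, and how reads shared with them were counted is not given in the sources used here.

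**Figure D2:**
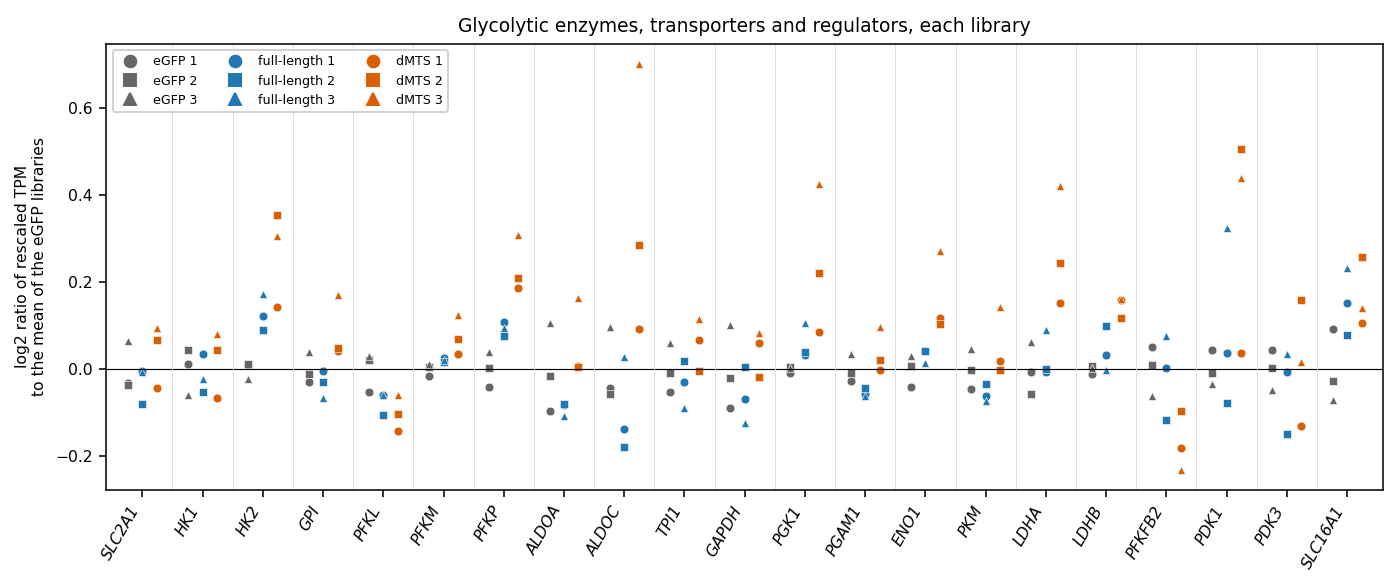
Log2 ratio of rescaled TPM to the mean of the eGFP libraries for the 21 glycolytic genes tested, 1 point per library, shape for the replicate number and colour for the group. For ALDOC, PGK1 and LDHA the triangle of dMTS replicate 3 is highest and the circle of dMTS replicate 1 is nearest to the eGFP points.

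At the end of the pathway both lactate dehydrogenase subunits were higher with dMTS. LDHA, on chromosome 11 (18394560 to 18408425), stood at 182, 194 and 220 rescaled TPM against 157 to 171 with eGFP and 163 to 174 with full-length OGDHL. All 3 dMTS libraries lay above the 6 others. LDHA rose by 0.27 (SE 0.07, adjusted p = 0.0470) after rescaling and by 0.28 (adjusted p = 0.0233) by voom. LDHB, which favours the reverse reaction, was at 11.2, 11.4 and 11.3 with eGFP, at 11.6, 12.1 and 11.3 with full-length OGDHL and at 12.6, 12.3 and 12.7 with dMTS. It rose by 0.14 (SE 0.03, adjusted p = 0.0366), and here the 3 dMTS libraries were close together. PDK1, a kinase that shuts pyruvate dehydrogenase, was at 3.26, 3.14 and 3.08 with eGFP and at 3.24, 4.49 and 4.29 with dMTS. Replicate 1 lay within the control range, and the difference of 0.26 (SE 0.11, adjusted p = 0.166) did not pass. PDK3, another such kinase, differed by 0.01 (SE 0.06), and SLC16A1 by 0.15 (SE 0.06, adjusted p = 0.125) with no overlap between the groups. SLC16A3 had 30 to 47 estimated reads per library and differed by -0.16 (SE 0.25) by voom.

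Of the 9 HIF targets outside glycolysis that were tested, 2 rose after rescaling and none fell (3.33% and 6.06% of all genes); none was called as deposited. ERO1A, on chromosome 14 (52639915 to 52695900), stood at 1.96, 1.83 and 1.80 rescaled TPM with eGFP, at 2.09, 2.07 and 2.14 with full-length OGDHL and at 2.21, 2.27 and 2.33 with dMTS. The 3 groups did not overlap, with full-length OGDHL between the others. ERO1A rose with dMTS by 0.19 (SE 0.03, adjusted p = 0.0195) after rescaling and by 0.29 (SE 0.05, adjusted p = 0.00578) by voom. MXI1, a repressor that competes with MYC for its partner MAX, lies on chromosome 10 (110207605 to 110287365). It stood at 1.83, 1.80 and 1.83 with eGFP, at 1.99, 1.96 and 2.05 with full-length OGDHL and at 2.06, 2.23 and 2.27 with dMTS, and rose with dMTS by 0.18 (SE 0.04, adjusted p = 0.0265). Both genes have long introns and low span-based TPM, so the added 1 makes their TPM differences smaller than those from reads (0.27 for MXI1 by voom).

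The mitophagy receptors BNIP3 and BNIP3L were more scattered among the dMTS libraries than ERO1A and MXI1, and only BNIP3 gave a larger difference. BNIP3 was at 20.005, 18.7 and 20.5 with eGFP, at 19.2, 19.1 and 21.8 with full-length OGDHL and at 21.9, 24.4 and 29.4 with dMTS, a difference of 0.33 (SE 0.10, adjusted p = 0.0786) that passed by voom (0.35, adjusted p = 0.0449). BNIP3L gave 0.16 (SE 0.05, adjusted p = 0.105), and by voom 0.23 (SE 0.06, adjusted p = 0.0526). NDRG1, a stress-responsive gene that androgen also induces, varied widely within groups. It stood at 1.96, 1.86 and 1.88 with eGFP, at 1.64, 1.35 and 2.01 with full-length OGDHL and at 1.53, 2.26 and 3.04 with dMTS, so that the dMTS libraries lay on both sides of the controls. BHLHE40, a transcriptional repressor, gave 0.11 (SE 0.03, adjusted p = 0.0708) without overlap between dMTS and eGFP.

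Other classical targets gave no such difference. VEGFA, the angiogenic growth factor, stood at 15.5, 14.97 and 15.7 with eGFP and at 15.3, 13.96 and 14.7 with dMTS (-0.07, SE 0.04). FAM162A differed by -0.07 (SE 0.05) and ANKRD37, an ankyrin-repeat gene, by -0.05 (SE 0.11). CA9 was too low to test by either fit, with 1 to 20 estimated reads. ADM, with 13 to 31 estimated reads, gave 0.55 (SE 0.24, adjusted p = 0.183) by voom.

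**Figure D3:**
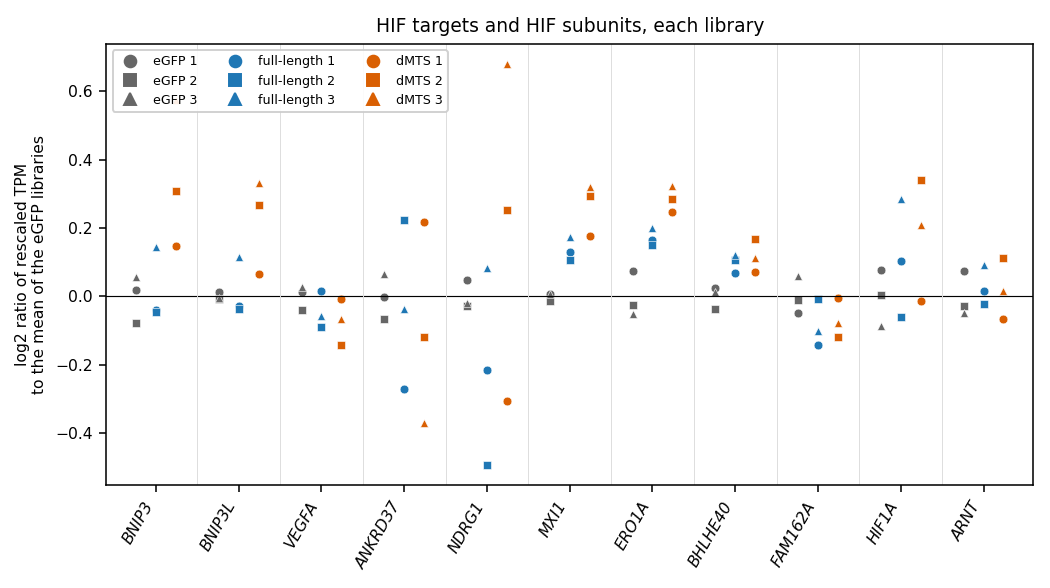
Log2 ratio of rescaled TPM to the mean of the eGFP libraries for the 11 HIF targets and subunits tested, 1 point per library, shape for the replicate number and colour for the group. ERO1A and MXI1 show tight groups with dMTS above eGFP, while the dMTS libraries of NDRG1 lie on both sides of 0.

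Among the HIF subunits EPAS1 stood apart. It lies on chromosome 2 (46293667 to 46386697), and its 93031-base span kept it under the TPM filter, although it had 382 to 662 estimated reads per library. It stood at 0.195, 0.193 and 0.188 rescaled TPM with eGFP, at 0.166, 0.152 and 0.193 with full-length OGDHL and at 0.132, 0.139 and 0.133 with dMTS. Each dMTS library was below all 6 others. EPAS1 fell by 0.51 on the log2 scale (SE 0.09, adjusted p = 0.00883, voom). With full-length OGDHL the difference was -0.18 (SE 0.09, adjusted p = 0.628). HIF1A was at 5.29, 5.03 and 4.72 with eGFP, at 5.38, 4.80 and 6.10 with full-length OGDHL and at 4.96, 6.35 and 5.78 with dMTS (0.15, SE 0.09, adjusted p = 0.324). ARNT differed by 0.02 (SE 0.05). HIF alpha subunits are controlled mainly as proteins, which these data do not measure.

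**Figure D4:**
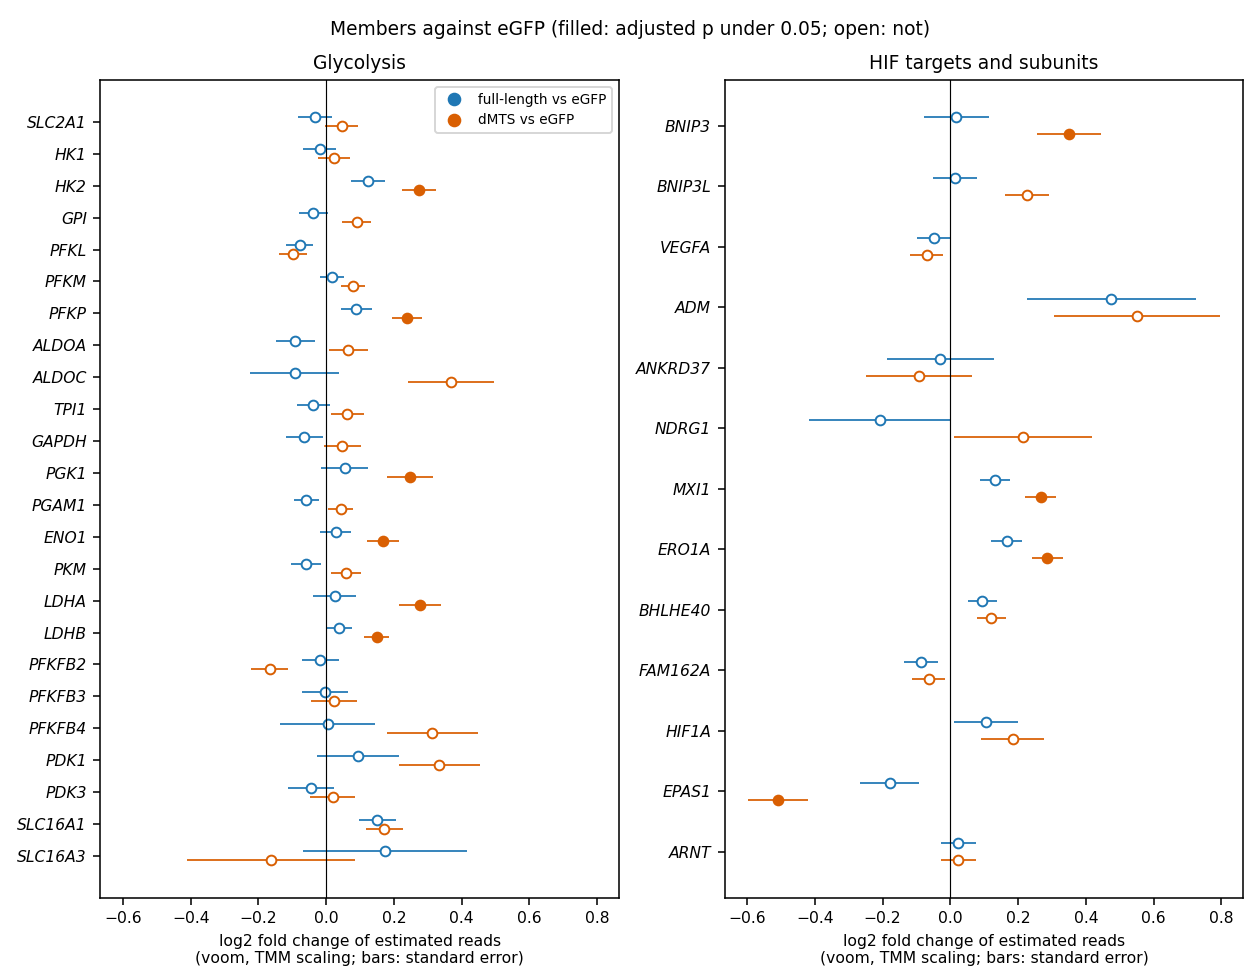
Log2 fold change of estimated reads against eGFP (voom with TMM scaling, bars are standard errors) for the 37 genes with enough reads, glycolysis on the left and HIF targets and subunits on the right. Filled points passed at an adjusted p under 0.05: 10 for dMTS, with EPAS1 at -0.51 the only one below 0, and none for full-length OGDHL.

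The 3 dMTS libraries were not alike for these genes. The order and the medians given here are from rescaled TPM. Among the 32 genes tested, dMTS replicate 3 was the highest of its group for 21, replicate 2 for 8 and replicate 1 for 3. Over all genes replicate 3 was highest for 21.0%, replicate 2 for 35.8% and replicate 1 for 43.3%. Replicate 1 was lowest for 22 of the 32 and for 38.7% of all genes. The order depends on the scale. As deposited, replicate 2 was the highest for nearly all of the 32, as for LDHA at 168, 236 and 217 TPM in replicates 1, 2 and 3. Replicate 3 was then highest only for ALDOC and NDRG1. On the rescaled scale the groups of genes compared as follows. The median log2 ratio of the glycolytic genes to the eGFP mean was 0.04, 0.07 and 0.14 in dMTS replicates 1, 2 and 3, and that of the HIF targets and subunits 0.07, 0.25 and 0.21. In the full-length libraries the same medians ran from -0.03 to 0.01 and from -0.02 to 0.12. OGDHL itself was lowest in dMTS replicate 1, at 76.1 TPM, and its part in this order was not tested.

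The calls for dMTS rested on which libraries were kept. After rescaling the count of 6 became 13 without dMTS replicate 1, and 0 without dMTS replicate 2, dMTS replicate 3, eGFP replicate 2 or eGFP replicate 3, where 168 (1.27%), 99 (0.748%), 64 (0.484%) and 208 (1.57%) of all genes were called. It was 1 without eGFP replicate 1 or full-length replicate 1, where ERO1A alone passed. Over all genes 1242 were called with all libraries, 566 (4.28%) without eGFP replicate 1, 565 (4.27%) without full-length replicate 1 and 2356 (17.8%) without dMTS replicate 1. By voom the count of 10 ran from 2 without eGFP replicate 2 (1.76% of all genes called), and 3 without dMTS replicate 3 (1.85%), to 16 without dMTS replicate 1 (17.2% of all genes). ERO1A (0.27 to 0.32) and EPAS1 (-0.52 to -0.50) passed in all 9 of these voom fits, MXI1 in 8, HK2 and PFKP in 7, LDHA in 6 and LDHB in 4. ENO1 and BNIP3 passed in 2 of them and PGK1 in 1. With dMTS replicate 1 left out, ALDOC (0.48, adjusted p = 0.0363), PDK1 (0.37, adjusted p = 0.0265) and BNIP3 (0.42, adjusted p = 0.0214) passed on the rescaled scale. With only the 6 eGFP and dMTS libraries in the fit, no member passed after rescaling, where 224 of all genes (1.69%) did.

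**Figure D5:**
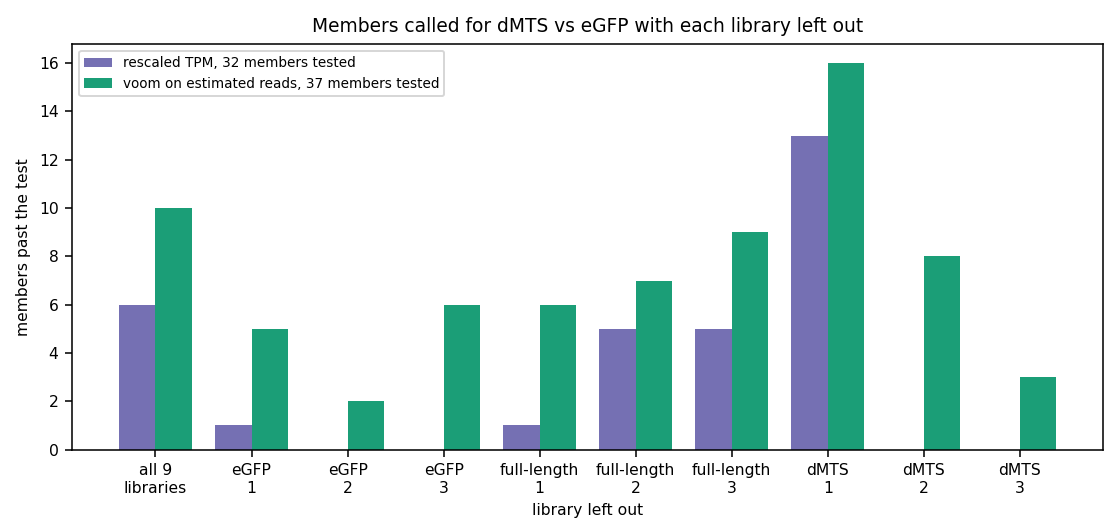
Number of members past the test for dMTS against eGFP with all 9 libraries and with each left out in turn, for rescaled TPM (32 members tested) and voom (37 tested). The bars are highest, at 13 and 16, without dMTS replicate 1, and at 0 for rescaled TPM without dMTS replicate 2 or 3 or eGFP replicate 2 or 3.

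The forms were also compared directly. No member passed for full-length OGDHL against dMTS on any of the 3 scales, where 0, 1 and 9 of all genes did (0%, 0.00756% and 0.0376%). At an unadjusted p under 0.05 there were 3 members as deposited (5.42% of all genes), 16 after rescaling (15%) and 18 of 37 by voom (14.5%). LDHA had the smallest adjusted p, 0.194 after rescaling (-0.24, SE 0.07) and 0.128 by voom. EPAS1 was higher with the full-length form by 0.33 (SE 0.09, adjusted p = 0.159) by voom. HK2 differed by -0.12 (SE 0.05) and ERO1A by -0.08 (SE 0.03) after rescaling. The rises with dMTS are therefore not shown to differ from the values with full-length OGDHL. After rescaling the full-length libraries lay below all dMTS libraries for 13 members and above them for none, where 7.94% of all genes lay below and 9.46% above. As deposited they lay below for 1 (LDHB) and above for 0, where 4.7% and 4.22% of all genes did. Without dMTS replicate 1, 5 members passed after rescaling (ALDOC, BNIP3, BNIP3L, HK2 and LDHA, all lower with the full-length form, as were 1.31% of all genes) and 9 by voom (all lower, 1.34% of all genes). Both comparisons with eGFP share the eGFP libraries, and those with dMTS share the dMTS libraries.

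Other genes of these pathways were taken from 2 further lists. Of 36 further glycolysis and pyruvate genes 35 were in the table and 18 were tested; none rose and 2 fell with dMTS after rescaling, where 3.33% of all genes rose and 6.06% fell. These were ADPGK, an ADP-dependent glucokinase (-0.23, adjusted p = 0.0236), and LDHD, a mitochondrial dehydrogenase of D-lactate (-0.21, adjusted p = 0.0492). Their median difference was 0.03. ADPGK stood at 5.67, 5.48 and 5.46 rescaled TPM with eGFP and at 4.91, 4.30 and 4.47 with dMTS. The pyruvate dehydrogenase subunits PDHA1 and PDHB and the mitochondrial pyruvate carriers MPC1 and MPC2 were tested without a call, as were the neural and muscle enolases ENO2 and ENO3. Of 40 further HIF pathway genes 39 were in the table and 20 were tested. DDIT4, an inhibitor of the mTOR kinase, rose from 112, 112 and 116 to 133, 144 and 154 rescaled TPM (0.33, SE 0.05, adjusted p = 0.0141). STC2, a secreted glycoprotein, rose by 0.13 (adjusted p = 0.0278), and WSB1, a ubiquitin ligase subunit, fell by 0.29 (adjusted p = 0.0272). Their median difference was 0.06. Both lists had no call as deposited, and none for full-length OGDHL against eGFP or against dMTS on any scale. For full-length OGDHL against eGFP after rescaling the lowest p-values belonged to LDHD (-0.19), ADPGK (-0.10) and the glucose phosphatase G6PC3 (-0.14), with adjusted p of 0.436 to 0.579. In the HIF list they belonged to CITED2 (0.07), STC2 (0.06) and KLF10 (0.11), with adjusted p of 0.524 to 0.538. For full-length OGDHL against dMTS they were ENO2 (-0.16), ADPGK (0.14) and SLC2A8 (0.12), and DDIT4 (-0.33, adjusted p = 0.116), WSB1 (0.20) and P4HA1 (-0.20). By voom with dMTS, ADPGK was again called (-0.28, adjusted p = 0.0150) and LDHD was not (-0.22, adjusted p = 0.0530), while PGM1 and SLC16A7 were higher and SLC16A8 lower in the first list. In the second list voom called DDIT4, STC2 and WSB1 again, P4HA1, LOX and TMEM45A as higher and KDM4B and EGLN3 as lower. Voom tested 29 genes of the first list and 35 of the second, and called 3.19% of all genes higher and 5.69% lower. Its differences with dMTS ran from -1.06 to 0.65 in the first list and from -0.32 to 2.79 in the second. Voom takes in genes under the TPM filter, where few reads can give wide differences. Among the genes past that filter, the rescaled differences ran only from -0.23 to 0.14 in the first list and from -0.29 to 0.33 in the second. The genes called only by voom were named after their values were seen.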

How the data were processed

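The authors deposited one table of TPM for 36650 genes in the 9 libraries, and sample titles name its columns. STAR and GRCh38 are named without a version in the submitters' processing notes. The quantifier, the annotation release and the use of strand in counting were not given in the sources used. Per the labels' protocols, libraries came from a stranded mRNA kit and were read as pairs of 50 bases.

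The length column of the deposited table equals the genomic span. Multiplied by it, 71.4% to 74.0% of TPM values under 20 reads came to a whole number of reads (within 0.01) at a library-specific step. Reads were estimated from these steps and give a depth of 86.3 to 121 M (M, 1000000); being estimates, they carry no counting interval. Per-length levels divide them by a single transcript per gene of GENCODE 29, the principal transcript where one was tagged. Otherwise it was picked by consensus coding tag, then best support level, then greatest length. This rule set the length for ALDOA, ENO1, PKM, PFKM, PFKFB2, PFKFB3, PDK1, VEGFA, HIF1A and ARNT.

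The test took the 13231 genes, 32 members among them, that reached 1 TPM in 3 libraries or more, with limma 3.58.1 in R 4.3.3 on log2(TPM + 1), with a variance trend, no covariate and every library in 1 fit (6 residual degrees of freedom). Log2 differences on this scale understate changes of low genes. Two-sided p-values were adjusted (Benjamini-Hochberg) over all genes tested, with a call under 0.05. PFKFB3, PFKFB4, SLC16A3, CA9, ADM and EPAS1 missed the filter. Rescaling multiplied each library so that the median log2 ratio of tested genes to their means was 0. Voom was run on estimated reads of at least 10 in at least 3 libraries (23941 genes, 37 members) with trimmed-mean (TMM) scaling. It was planned as an alternative. Limma and the scaling were tested on simulated data. The simulated libraries were independent and had the same spread in every group. The simulation therefore cannot show how the fits behave when libraries share variation or when dMTS libraries vary more.

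The members and both lists of other pathway genes were chosen with earlier results of these data known. Named genes are all members, genes of those lists called under either scaling, otherwise the 3 with the smallest p, and OGDHL. Alternatives covered the pseudocount, filter, scaling, block, libraries in the fit and each library left out. Replicate numbers did not pair the samples. After rescaling, correlations of deviations from the group means ran from -0.46 to 0.09 for same-numbered libraries. Differently numbered libraries of different groups gave up to 0.52 (full-length replicate 3 with dMTS replicate 2) and down to -0.46 (full-length replicate 3 with dMTS replicate 1). Libraries thus shared variation that the numbers do not follow, and its source was not tested.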

Additional observations from a re-analysis of the deposited data

How the results depend on the processing

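Full-length OGDHL against eGFP gave 0 members under every alternative run. For dMTS against eGFP the count of 0 as deposited became 6 after rescaling, 4 once OGDHL and the mitochondrial genome were taken out of the TPM, 8 by voom and 10 by voom with TMM scaling. It ran from 0 to 4 with each library left out. The 4, without dMTS replicate 1, were ALDOC, BNIP3, LDHA and PGK1. In that fit 467 of all 13231 genes passed, against 68 with all libraries. The count of 6 after rescaling became 0 with only the 6 libraries compared, where fewer libraries estimate the spread, and 10 by voom with TMM scaling. With each library left out it ran from 0 to 13, and for voom, added after the data were seen, from 2 to 16 (3 without dMTS replicate 3). For full-length OGDHL against dMTS the count was 0 to 1 as deposited, 0 to 5 after rescaling and 0 to 9 by voom. It was above 0 only without dMTS replicate 1, where 58 of all genes passed as deposited, 912 after rescaling and 1500 by voom. With the replicate block the count for dMTS was 0 as deposited (13 of all genes against 68) and 0 after rescaling (99 of all genes against 1242). The samples share only a number, and the cause was not tested. A pseudocount of 0.1 or 5 left the 6 calls after rescaling the same genes. No member's call reversed direction under the alternatives. Array weights, planned after rescaling, did not converge and are not reported. The TPM filter left 6 members out of the main test: EPAS1, PFKFB3 and PFKFB4, with 382 or more estimated reads in each library, and CA9, ADM and SLC16A3, with at most 47.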
